A study of Homo sapiens with 4 samples.

Results

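The HOX genes are the 39 protein-coding genes of GENCODE release 44 whose name is HOXA, HOXB, HOXC or HOXD followed by a number, out of 20033 protein-coding genes. They lie in 4 clusters. HOXA holds 11 genes on chromosome 7, HOXB holds 10 on chromosome 17, HOXC holds 9 on chromosome 12 and HOXD holds 9 on chromosome 2. Each cluster was taken from its first to its last gene and widened by 10 kb on each side, which gave spans of 127 kb (chr7:27082993-27210091), 220 kb (chr17:48518526-48738750), 137 kb (chr12:53928831-54066030) and 118 kb (chr2:176082721-176200907) in hg38. In these spans lay 43 of the 104156 peaks of 4 ChIP-seq peak lists. The rule used gene names and positions only, and no measured value.

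The peaks came from ChIP-seq with an anti-GFP antibody in MDA-MB-231, a human triple-negative breast cancer line. The cells carried a bacterial artificial chromosome with Smad2 or Smad3 and its own control elements, tagged at the C-terminus with LAP, a localization and affinity purification tag that contains GFP. Each line was a population selected with Geneticin and sorted for GFP, and the untagged Smads of the host were still present, so only the tagged copy was measured. The 4 conditions were LAP-Smad2 untreated, LAP-Smad3 untreated, LAP-Smad2 with 10 ng/mL TGFβ-1 for 2 h and LAP-Smad3 with the same treatment, with 1 library each. With 1 library per condition, no difference has a replicate check and no test between conditions was made. The lists held 26828 peaks for LAP-Smad2 after TGFβ-1, 62551 for LAP-Smad3 after TGFβ-1, 11266 for the library labelled LAP-Smad2 untreated and 3511 for the library labelled LAP-Smad3 untreated. The labels and the deposited file names disagree on which untreated library is Smad2 and which is Smad3. Each is named here after its label, and nothing is concluded from which Smad it carries. Read totals per library were not given with the lists, and list length also depends on depth.

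HOX proteins are transcription factors that bind DNA through a homeodomain and give cells their position along the head-to-tail axis of the embryo. The order of the genes in a cluster follows the order in which they are used along that axis, from the anterior genes with low numbers to the posterior genes with high numbers, and genes with the same number in different clusters are paralogues. Smad2 and Smad3 are phosphorylated by the activated TGFβ receptor, bind Smad4 and enter the nucleus. The MH1 domain of Smad3 binds the short sequence AGAC and GC-rich sequences, while an insert in the MH1 domain of the common form of Smad2 hinders direct binding to DNA.

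After TGFβ-1, 11 of the 39 HOX promoters had a peak in at least 1 list, against 45.1% of all protein-coding promoters, and 1 of them, that of HOXD12, had peaks of both lists. A promoter is here the 3 kb on each side of the start of the gene's canonical transcript, and a peak interval had to reach into it by at least 1 bp. In the LAP-Smad2 list, 6 of the 39 HOX promoters had a peak, or 15.4% (7.25% to 29.7%, Wilson 95% interval), against 28.5% of all 20033 protein-coding promoters. In the LAP-Smad3 list, 6 of 39 also had a peak, or 15.4% (7.25% to 29.7%), against 25.1% of all. At the shares of all promoters, 11.1 and 9.80 HOX promoters would have had one. Both background shares lie inside the interval of the HOX share, so a lower share at HOX promoters of 3 kb is not resolved in either list on its own. Such intervals cover counting error only, and neighbouring HOX promoters are not independent, since 8 of 35 neighbouring starts are under 6 kb apart and their windows overlap.

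HOX promoters are richer in GC than most, with a median of 54.0% (47.9% to 60.4%) in the window of 3 kb on each side, against 48.7% over all promoters. The 9825 promoters within the GC range of the HOX promoters had a peak more often than all promoters, in 36.5% for LAP-Smad2 and 29.2% for LAP-Smad3 after TGFβ-1. Against this set the HOX share was lower by a wider margin, and the LAP-Smad2 value of 36.5% lies outside the interval of the HOX promoters while the LAP-Smad3 value of 29.2% lies just inside. Within 1 kb of the start, 3 HOX promoters had a LAP-Smad2 peak and 2 had a LAP-Smad3 peak, against 24.4% and 15.4% of all promoters.

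**Figure D1:**
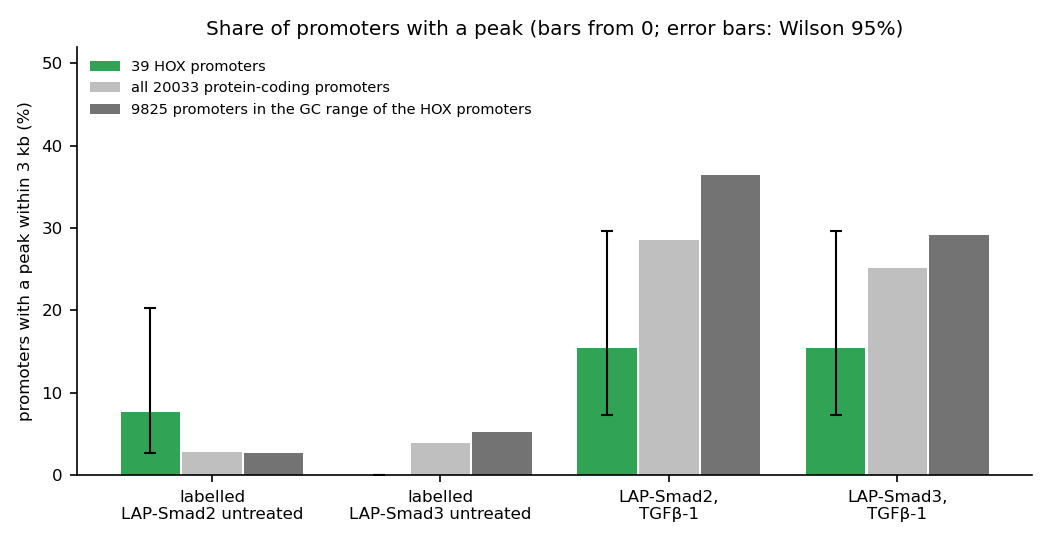
Share of promoters with a peak within 3 kb of the canonical start, in percent, for each of the 4 lists, with 1 bar each for the 39 HOX promoters, all 20033 protein-coding promoters and the 9825 promoters in the GC range of the HOX promoters. Error bars on the HOX bars are Wilson 95% intervals, drawn where the count is above 0. In both lists after TGFβ-1 the HOX bar stands at 15.4%, below the bars of all promoters at 28.5% and 25.1%.

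By canonical starts, HOXD12 was the only HOX gene with a promoter peak in both lists after TGFβ-1, 1 of 39 (2.56%, 0.454% to 13.2%) against 8.50% of all promoters. With the start of every protein-coding transcript, HOXB3 and HOXD3 had peaks of both lists too, which gave 3 of 39 (7.69%, 2.65% to 20.3%) against 13.1% of all. The 11 HOX promoters with a peak in at least 1 of these lists are 28.2% (16.5% to 43.8%) against 45.1% of all. Over all 4 lists, 13 HOX promoters had a peak, 33.3% (20.6% to 49.0%) against 46.7%, and 26 had none. Of the background shares for canonical starts, 45.1% lies just above its interval, while 8.50% and 46.7% lie inside theirs. The genes without a promoter peak include HOXA9, HOXA10 and HOXA13, known from blood, uterus and limb, HOXB13, known from the prostate, 7 of 9 HOXC genes and 7 of 9 HOXD genes.

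**Figure D2:**
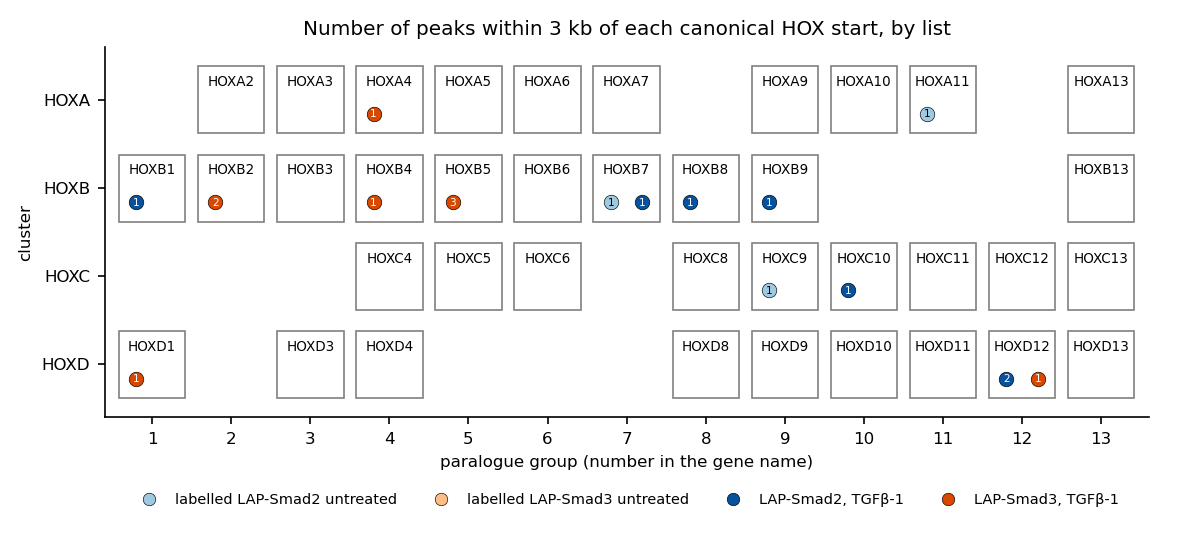
HOX genes by cluster (rows) and paralogue group, the number in the gene name (columns). A filled circle marks a list with a peak within 3 kb of the canonical start and the digit in it is the number of peaks. Not every HOX gene is drawn. By canonical starts, only HOXD12 holds circles of both lists after TGFβ-1.

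HOXD12, a posterior gene of the HOXD cluster that is used in the developing limb, had 3 promoter peaks after TGFβ-1. HOXD peak 3 (peaks are numbered along the chromosome within each cluster), of the LAP-Smad2 list, had its summit 1241 bp upstream of the start, with a fold enrichment of 4.02 and a −log10 q of 4.24. HOXD peak 4, also of the LAP-Smad2 list, had its summit 345 bp downstream in the coding sequence of HOXD12, with a fold enrichment of 3.88 and a −log10 q of 4.22. HOXD peak 2, of the LAP-Smad3 list, had its summit 2354 bp upstream, with a fold enrichment of 7.17 and a −log10 q of 7.63. The fold enrichment is the pileup of reads at the summit over the local background in that library, and such scores cannot be compared between lists. HOXD peaks 2 and 3 are 700 bp apart between HOXD13 and HOXD12 and do not overlap, so that both lists reached the same promoter at different positions. The 200 bp on the centre of each are shown to compare the DNA under neighbouring peaks of the 2 lists, on the plus strand of hg38, with AGAC and its reverse complement GTCT in capitals. HOXD peak 3 has 5 such matches and HOXD peak 2 has 1.
HOXD peak 2, LAP-Smad3 after TGFβ-1, chr2:176097422-176097621: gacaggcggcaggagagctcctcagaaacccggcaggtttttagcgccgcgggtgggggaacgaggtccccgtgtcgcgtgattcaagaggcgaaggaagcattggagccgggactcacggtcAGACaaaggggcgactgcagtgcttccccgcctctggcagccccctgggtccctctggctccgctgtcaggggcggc
HOXD peak 3, LAP-Smad2 after TGFβ-1, chr2:176098445-176098644: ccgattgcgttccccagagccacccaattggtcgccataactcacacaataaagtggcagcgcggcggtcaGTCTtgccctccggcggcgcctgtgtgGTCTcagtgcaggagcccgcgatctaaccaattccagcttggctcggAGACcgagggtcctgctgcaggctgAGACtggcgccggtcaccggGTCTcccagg

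Of the other HOX promoters with a LAP-Smad2 peak after TGFβ-1, 4 were in the HOXB cluster and 1 in HOXC. HOXB1, which specifies a segment of the hindbrain, had HOXB peak 1 with its summit 1295 bp downstream of the start in the second and last exon, with a fold enrichment of 3.06 and a −log10 q of 2.50. HOXB7 and HOXB8, genes of the trunk that are neighbours on the chromosome, shared HOXB peak 16, whose summit lay in the coding sequence of HOXB8, 2035 bp downstream of the HOXB8 start and 2240 bp upstream of the HOXB7 start, with a fold enrichment of 3.38 and a −log10 q of 4.05. HOXB9, also a gene of the trunk, had HOXB peak 19 in its intron, 999 bp downstream of the start, with a fold enrichment of 3.86 and a −log10 q of 4.19. These 4 promoters thus rest on 3 peaks. HOXC10, a gene of the lumbar region and hindlimb, had HOXC peak 1 in its intron, 1093 bp downstream of the start, with a fold enrichment of 2.78. Its −log10 q of 1.50 is the lowest of the whole LAP-Smad2 list, and the peak was lost at a q-value of 0.01.

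The LAP-Smad3 peaks after TGFβ-1 lay at HOXA4, HOXB2, HOXB4, HOXB5, HOXD1 and HOXD12, all but HOXD12 in the anterior or central part of their cluster. HOXB5, known from the neural crest of the gut, had 3 peaks upstream of its start, HOXB peaks 11, 12 and 13, with summits at 1002, 1662 and 2986 bp, fold enrichments of 5.07, 4.41 and 4.50 and −log10 q of 4.17, 3.17 and 3.30. HOXB2, a gene of the hindbrain, had 2 peaks inside its gene. HOXB peak 4, with its summit 2627 bp downstream of the canonical start, was the strongest HOX cluster peak of the list, with a fold enrichment of 7.36 and a −log10 q of 8.21. HOXB peak 3, with its summit at 3069 bp, reached into the promoter window only with its edge and had a fold enrichment of 4.60 and a −log10 q of 3.84. Both HOXB2 peaks are closer to the start of another transcript of HOXB2, 664 bp for HOXB peak 4 and 1106 bp for HOXB peak 3. The window of HOXB peak 4, in the intron of HOXB2, is shown as the highest scoring one.
HOXB peak 4, LAP-Smad3 after TGFβ-1, chr17:48542367-48542566: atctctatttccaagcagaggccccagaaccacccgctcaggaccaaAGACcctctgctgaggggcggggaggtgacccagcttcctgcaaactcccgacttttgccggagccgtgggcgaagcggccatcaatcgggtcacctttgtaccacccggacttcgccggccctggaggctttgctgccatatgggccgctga

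HOXA4, a gene of the neck and upper trunk, had the LAP-Smad3 peak nearest to a canonical HOX start. HOXB peak 8 and HOXD peak 6 of that list lay 71 and 115 bp from other transcript starts of HOXB3 and HOXD3. HOXA peak 4 had its summit 388 bp upstream of HOXA4, with a fold enrichment of 5.88 and a −log10 q of 5.63. HOXB4, which expands blood stem cells when overexpressed, had HOXB peak 9 with its summit 1852 bp upstream, with a fold enrichment of 4.97 and a −log10 q of 3.84. HOXD1, an anterior gene that is used in sensory neurons, had HOXD peak 9 with its summit 2960 bp upstream, with a fold enrichment of 3.24 and a −log10 q of 2.02, which ranked at 2.16% of the list from the bottom. The peaks of HOXB4, HOXB5 and HOXD1 were lost when the LAP-Smad3 list was reduced to its 26828 strongest peaks, the length of the LAP-Smad2 list. In that reduced list 3 HOX promoters had a peak, HOXA4, HOXB2 and HOXD12, against 11.5% of all promoters.

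The library labelled LAP-Smad2 untreated had 3 HOX promoters with a peak, 7.69% (2.65% to 20.3%) against 2.74% of all promoters and 2.68% of those in the same GC range, values near the lower end of the interval. HOXA11, a gene of the forearm and uterus, had HOXA peak 5 with its summit 401 bp downstream of the start, with a fold enrichment of 6.45 and a −log10 q of 5.97. HOXB7 had HOXB peak 15 at 352 bp, with a fold enrichment of 5.07 and a −log10 q of 6.41. HOXC9, a gene of the thoracic region, had HOXC peak 2 at 294 bp, with a fold enrichment of 6.02 and a −log10 q of 5.17. All 3 summits lay in the coding part of exon 1, and HOXA11, HOXB7 and HOXC9 each have 2 exons. Of the 4 HOX cluster peaks of this list, these 3 (75.0%, 30.1% to 95.4%) had their summit in a coding exon, against 2.19% of its 11266 peaks and 19.8% of its 571 peaks at any protein-coding promoter. This comparison was not planned beforehand and rests on 4 peaks, so nothing is concluded from it. None of the 3 overlapped a peak of either treated list. Of the whole list, 33.3% overlapped the LAP-Smad2 list after TGFβ-1 and 39.9% the LAP-Smad3 list. The share that overlapped at least 1 of them is not given here. At 0 of 39 HOX promoters lay a peak of the library labelled LAP-Smad3 untreated, which allows a share of up to 7.69% (3 counts), against 3.92% of all promoters. The windows of HOXA peak 5 and HOXB peak 15 are shown because they share this position in genes of different clusters. They are rich in GC, with 69.0% and 72.0%, and hold 19 and 26 CpG dinucleotides and 3 and 1 AGAC matches.
HOXA peak 5, exon 1 of HOXA11, chr7:27184729-27184928: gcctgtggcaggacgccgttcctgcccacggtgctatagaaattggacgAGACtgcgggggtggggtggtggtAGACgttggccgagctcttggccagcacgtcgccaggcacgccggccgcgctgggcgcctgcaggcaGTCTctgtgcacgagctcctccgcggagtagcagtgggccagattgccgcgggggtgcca
HOXB peak 15, exon 1 of HOXB7, chr17:48610581-48610780: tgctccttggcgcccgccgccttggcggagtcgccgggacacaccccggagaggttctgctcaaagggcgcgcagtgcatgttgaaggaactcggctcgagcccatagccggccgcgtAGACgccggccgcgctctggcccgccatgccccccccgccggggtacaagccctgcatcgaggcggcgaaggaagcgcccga

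By paralogue group, the promoters with a peak after TGFβ-1 were spread along the axis. They were 3 of 8 in groups 1 to 3 (anterior), 5 of 15 in groups 4 to 8 (central) and 3 of 16 in groups 9 to 13 (posterior). The LAP-Smad2 list had 1, 2 and 3 and the LAP-Smad3 list had 2, 3 and 1 in these groups. With so few genes in a group, these counts do not resolve an order, and the 45.1% of all promoters lies inside the intervals of groups 1 to 3 (13.7% to 69.4%) and 4 to 8 (15.2% to 58.3%) and just above the interval of groups 9 to 13 (which starts at 6.59%). By cluster, 7 of 10 HOXB promoters (39.7% to 89.2%), 2 of 9 HOXD (6.32% to 54.7%), 1 of 11 HOXA (1.62% to 37.7%) and 1 of 9 HOXC promoters (1.99% to 43.5%) had a peak. The share of all promoters lies inside the intervals of HOXB and HOXD and above those of HOXA and HOXC, and the intervals of HOXC and HOXD overlap that of HOXB.

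Counted over the whole spans rather than at the promoters, the HOX clusters together held more peaks after TGFβ-1 than the genome at large, for LAP-Smad3 through HOXB. The 603 kb of the 4 spans held 17 LAP-Smad2 peaks after TGFβ-1, or 2.82 per 100 kb (1.64 to 4.52, exact Poisson 95% interval for counting error). The density was 0.869 over the genome and 1.10 within protein-coding genes, each also widened by 10 kb on each side. For LAP-Smad3 after TGFβ-1 there were 21 peaks, or 3.48 per 100 kb (2.16 to 5.33). The LAP-Smad3 density was 2.03 over the genome and 2.55 within the widened protein-coding genes. The ratio to the genome was 3.25 (1.89 to 5.20) for LAP-Smad2 and 1.72 (1.06 to 2.63) for LAP-Smad3. The genome values lie below both intervals, whereas the LAP-Smad3 value within the widened protein-coding genes lies inside its interval. The spans also held 4 peaks of the library labelled LAP-Smad2 untreated and 1 of the library labelled LAP-Smad3 untreated, or 0.664 (0.181 to 1.70) and 0.166 (0.00420 to 0.924) per 100 kb, with the genome values of 0.365 and 0.114 inside these intervals. Without HOXB, the other 3 clusters held 7 LAP-Smad3 peaks after TGFβ-1, or 1.83 per 100 kb (0.736 to 3.77), where an even spread over the genome would give 7.75. They held 9 LAP-Smad2 peaks, or 2.35 per 100 kb (1.08 to 4.47), where an even spread would give 3.32.

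Within the spans, peaks after TGFβ-1 were about as dense at the HOX promoters as between them. The promoter windows cover 37.0% of the spans and held 6 of the 17 LAP-Smad2 summits after TGFβ-1, or 35.3%, and 8 of the 21 LAP-Smad3 summits, or 38.1%. The LAP-Smad2 density was 2.69 per 100 kb in HOX promoters and 2.90 in the rest of the spans. Over all protein-coding promoters it was 5.35, and 0.704 in the rest of the genome. The LAP-Smad3 density was 3.59 per 100 kb in HOX promoters and 3.42 in the rest of the spans, against 5.22 in all promoters and 1.91 in the rest of the genome. The library labelled LAP-Smad2 untreated had 3 of its 4 summits in HOX promoters, 1.34 per 100 kb against 0.263 in the rest of the spans, and the 1 summit of the library labelled LAP-Smad3 untreated lay outside them. The median distance from a summit to the nearest canonical HOX start was 6454 bp for LAP-Smad2 and 3469 bp for LAP-Smad3.

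**Figure D3:**
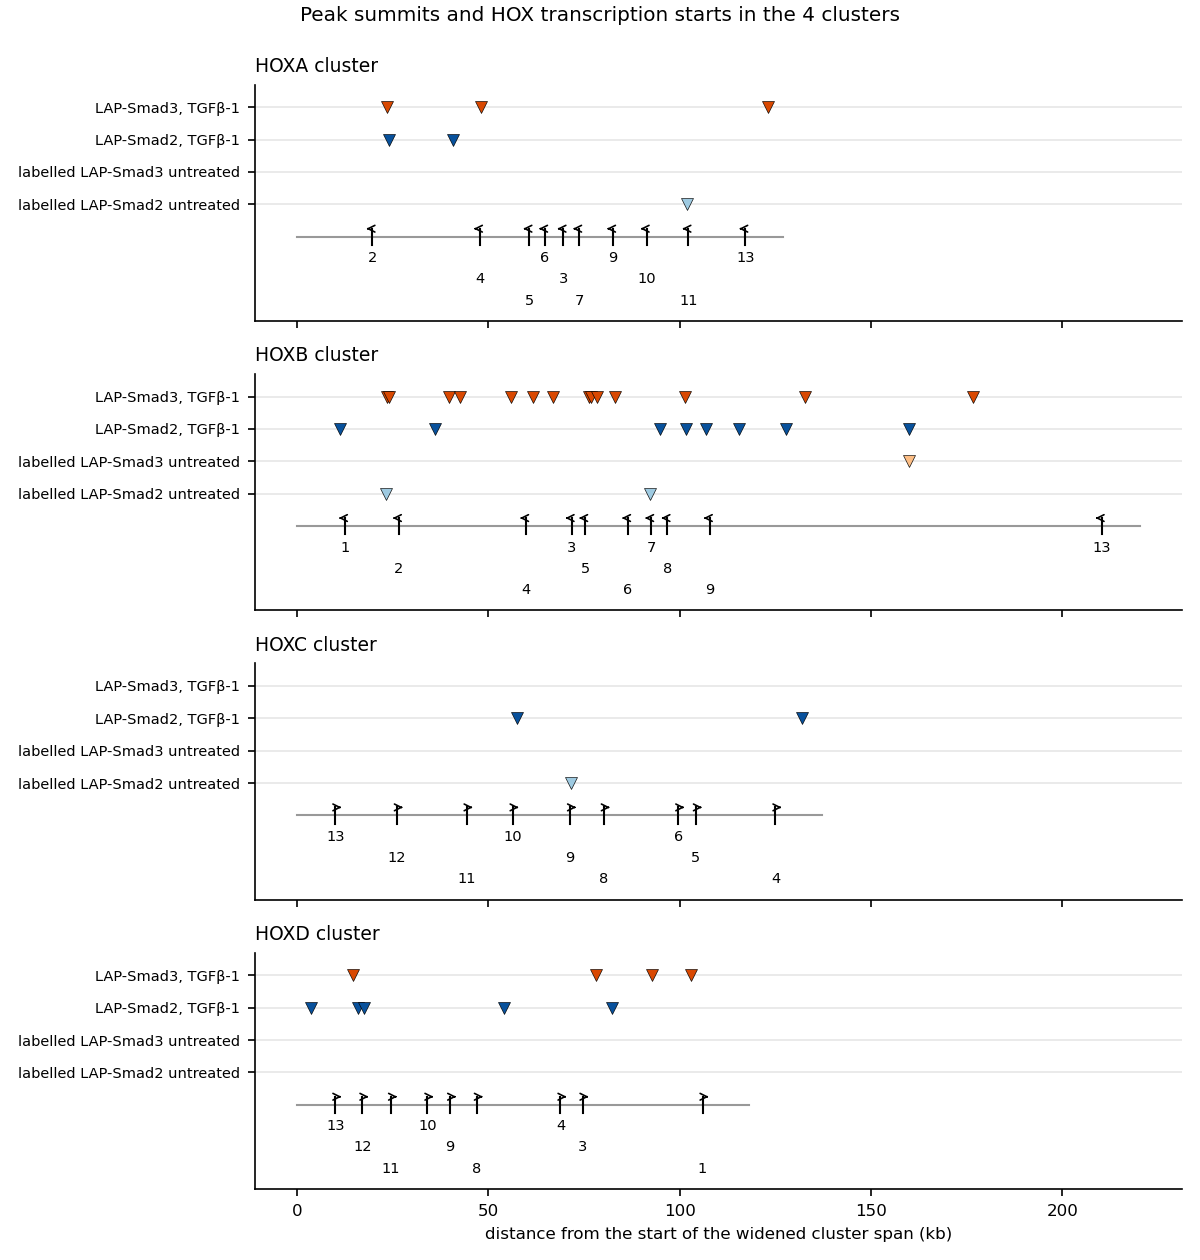
The 4 HOX clusters drawn to the same scale, in kb from the start of each widened span. Vertical strokes with small arrows are canonical starts (not all are drawn) and their direction of transcription, labelled with the number in the gene name, and triangles are peak summits, with 1 line per list. In HOXB, 12 of the 14 LAP-Smad3 summits lie to the left of the HOXB9 start, and HOXC has none.

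The peaks were unevenly divided between the clusters. HOXB held 25 of the 43 peaks, HOXD 9, HOXA 6 and HOXC 3. After TGFβ-1, HOXA held 2 LAP-Smad2 and 3 LAP-Smad3 peaks, HOXB 8 and 14, HOXC 2 and 0, and HOXD 5 and 4. In HOXB this gave 3.63 LAP-Smad2 peaks per 100 kb (1.57 to 7.16) and 6.36 LAP-Smad3 peaks (3.48 to 10.7). In HOXD it gave 4.23 (1.37 to 9.87) and 3.38 (0.922 to 8.67). The genome value lies below the interval for both lists in HOXB and for LAP-Smad2 in HOXD, and inside it for LAP-Smad3 in HOXD. In HOXA, 1.57 LAP-Smad2 peaks (0.191 to 5.68) and 2.36 LAP-Smad3 peaks (0.487 to 6.90) per 100 kb had intervals that include the genome values, as did the 1.46 LAP-Smad2 peaks (0.177 to 5.27) in HOXC. If the LAP-Smad3 peaks were spread evenly over the genome, HOXC would hold 2.78. The exact Poisson interval of a count of 0 in 137 kb reaches 2.69 peaks per 100 kb. This is above the genome value of 2.03 and the value of 2.55 within the widened protein-coding genes. The allowance of 3 counts, used for other counts of 0, reaches 2.19 per 100 kb, above 2.03 and below 2.55. The empty HOXC cluster is thus not resolved from the genome value. Its reading against the widened genes depends on the bound used, and nothing is concluded from it. The spans are alike in GC content, from 49.3% in HOXB to 51.8% in HOXC.

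Most LAP-Smad3 peaks of HOXB lay in the part that holds HOXB1 to HOXB9. These 108 kb, with the 10 kb beyond HOXB1, held 12 of the 14 LAP-Smad3 peaks (11.1 per 100 kb) and 5 of the 8 LAP-Smad2 peaks (4.64 per 100 kb). The 98.4 kb between HOXB9 and HOXB13, which hold the long non-coding RNA LINC02086, the start of a long HOXB7 transcript and no canonical HOX start, had 2 LAP-Smad3 and 3 LAP-Smad2 peaks (2.03 and 3.05 per 100 kb). The division at HOXB9 was chosen with the positions of the peaks known, and no interval is given for it. In the LAP-Smad3 list reduced to 26828 peaks, HOXB held 8 and the 4 clusters held 12, so that HOXB still held the most.

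**Figure D4:**
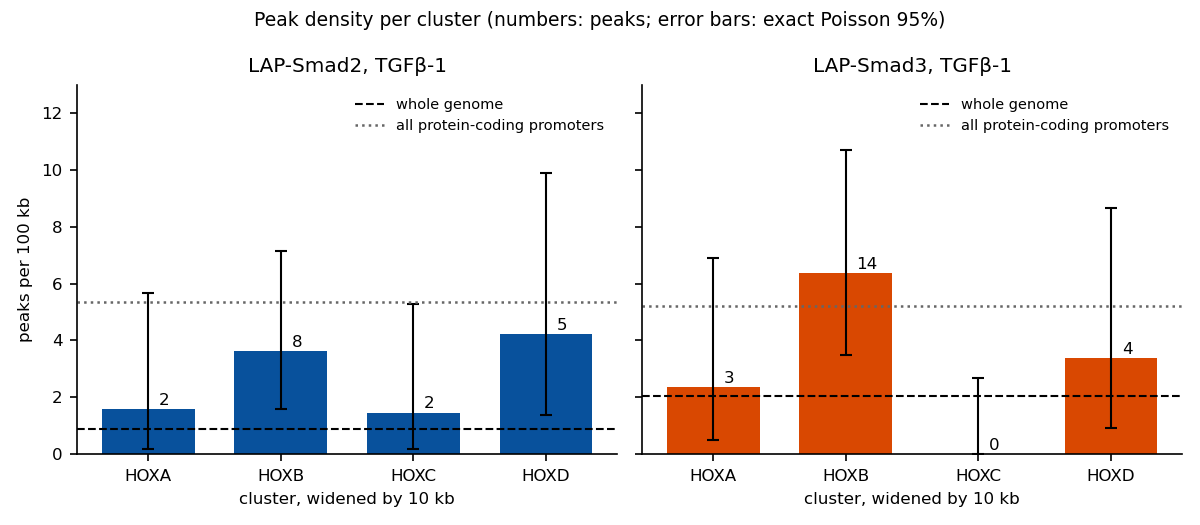
Peaks per 100 kb in each widened HOX cluster for LAP-Smad2 (left) and LAP-Smad3 (right) after TGFβ-1. Bars carry the number of peaks and exact Poisson 95% intervals, the dashed line is the whole genome and the dotted line all protein-coding promoters. HOXB has 14 LAP-Smad3 peaks at 6.36 per 100 kb and HOXC has 0.

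No LAP-Smad2 peak overlapped a LAP-Smad3 peak after TGFβ-1 in any HOX cluster. The shared peaks were 0 of 17 and 0 of 21, counts that allow shares of up to 17.6% and 14.3% (3 counts). Over the whole lists, 24.5% of the LAP-Smad2 list overlapped the LAP-Smad3 list by at least 1 bp, and 10.6% of the latter overlapped the former. The whole-list share of LAP-Smad2 lies above what its count of 0 allows, and that of LAP-Smad3 does not. Summits within 100 bp and a mutual overlap of at least 50% also gave 0.

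Peaks of the lists did come close in several places. HOXB peak 17 of LAP-Smad3 and HOXB peak 18 of LAP-Smad2 were 85 bp apart, 4622 and 4967 bp upstream of HOXB8 in the direction of HOXB9, inside a long transcript of HOXB7 whose record starts 22555 bp upstream of the canonical one. HOXA peaks 1 and 2, of LAP-Smad3 and LAP-Smad2, were 204 bp apart in an untranslated region of HOXA3, upstream of HOXA2. The HOXD12 pair was 700 bp apart. The windows of HOXB peaks 17 and 18 are shown as the closest pair. Their GC content was 58.5% and 65.0%, and each has 2 AGAC matches.
HOXB peak 17, LAP-Smad3 after TGFβ-1, chr17:48619865-48620064: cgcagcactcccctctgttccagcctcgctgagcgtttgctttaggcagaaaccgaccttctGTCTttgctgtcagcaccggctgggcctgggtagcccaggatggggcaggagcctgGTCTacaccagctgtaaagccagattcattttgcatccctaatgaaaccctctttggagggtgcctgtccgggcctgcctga
HOXB peak 18, LAP-Smad2 after TGFβ-1, chr17:48620153-48620352: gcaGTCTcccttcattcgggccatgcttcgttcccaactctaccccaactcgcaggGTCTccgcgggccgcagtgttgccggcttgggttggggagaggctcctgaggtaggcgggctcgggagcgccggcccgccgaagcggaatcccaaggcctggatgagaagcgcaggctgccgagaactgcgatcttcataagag

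In 2 places a peak of an untreated library overlapped a peak of a treated one. Of the whole list labelled LAP-Smad3 untreated, 71.3% overlapped the LAP-Smad2 list after TGFβ-1 and 19.4% the LAP-Smad3 list. Of the whole list labelled LAP-Smad2 untreated, 33.3% overlapped the former and 39.9% the latter. HOXB peak 23 of LAP-Smad2 after TGFβ-1 and HOXB peak 24 of the library labelled LAP-Smad3 untreated overlapped by 234 bp with summits 6 bp apart, in an intron of LINC02086 and 50221 bp from HOXB13. HOXB peak 2 of the library labelled LAP-Smad2 untreated and HOXB peak 3 of LAP-Smad3 after TGFβ-1 overlapped by 35 bp inside HOXB2, with summits 206 bp apart. By the labels each overlap joins different Smads, and by the deposited file names each joins the same one. Which naming is right is not known. The window of HOXB peak 23 is shown as the site listed with and without TGFβ-1.
HOXB peak 23, LAP-Smad2 after TGFβ-1, chr17:48678430-48678629: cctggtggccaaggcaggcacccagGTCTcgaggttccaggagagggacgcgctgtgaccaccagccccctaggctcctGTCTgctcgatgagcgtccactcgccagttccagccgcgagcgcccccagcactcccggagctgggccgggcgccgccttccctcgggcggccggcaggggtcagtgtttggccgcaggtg

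Several cluster peaks lay at non-coding RNA genes of the clusters. HOTTIP, a long non-coding RNA transcribed from beyond HOXA13 that is known to act on the posterior HOXA genes, held HOXA peak 6 of LAP-Smad3 in an exon, with a fold enrichment of 7.17 and a −log10 q of 7.63. HOXD peak 5 of LAP-Smad2 lay in exons of the antisense RNA HOXD-AS2 and of a long HOXD3 transcript, 53 bp from a start of that transcript and 556 bp wide, with a fold enrichment of 4.69 and a −log10 q of 6.09. HAGLR, a long non-coding RNA beside HOXD1, held the summits of HOXD peaks 7, 8 and 9. HOXD peak 7 of LAP-Smad2 was the strongest HOX cluster peak of its list by −log10 q, with 6.38 and a fold enrichment of 4.55. The strongest LAP-Smad2 peaks of the other clusters were HOXA peak 2 in an untranslated region of HOXA3 (fold enrichment 4.31, −log10 q 5.92), HOXB peak 23 in LINC02086 (4.67 and 5.81) and HOXC peak 3 beyond HOXC4 in the non-coding gene FLJ12825 (3.80 and 3.48). HOTAIR in HOXC and HOTAIRM1 in HOXA, known for their roles in gene silencing and in blood cells, held no summit of any list.

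The clusters also encode the microRNAs miR-10 and miR-196, which are known to target HOX mRNAs. MIR10A, between HOXB4 and HOXB5, had HOXB peak 9 of LAP-Smad3 after TGFβ-1 at 188 bp upstream of its precursor, and this peak is the one counted for HOXB4. MIR196A1, upstream of HOXB9, had HOXB peak 20 of LAP-Smad2 at 1332 bp upstream. The summit of that peak lay 372 bp from a transcript start of HOXB7. MIR10B, in HOXD, was 10192 bp from the nearest peak, MIR196A2, in HOXC, was 5379 bp from it and MIR196B, in HOXA, 15165 bp. MIR196A1 and MIR196A2 give the same mature miR-196a-5p, and miR-196b-5p has the same seed. Of these genes, the HOXB copy had a peak within 3 kb. The share of all microRNA genes with a peak is not given here, so nothing is concluded from this count. The mature sequences (RefSeq, GRCh38.p14) are given with the seed, bases 2 to 8, in capitals, and the window of HOXB peak 9, which has 0 AGAC matches, on the plus strand while MIR10A is transcribed from the minus strand.
hsa-miR-10a-5p: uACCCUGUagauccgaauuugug
hsa-miR-196a-5p: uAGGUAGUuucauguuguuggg
hsa-miR-196b-5p: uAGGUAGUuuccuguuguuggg
HOXB peak 9, LAP-Smad3 after TGFβ-1, chr17:48580136-48580335: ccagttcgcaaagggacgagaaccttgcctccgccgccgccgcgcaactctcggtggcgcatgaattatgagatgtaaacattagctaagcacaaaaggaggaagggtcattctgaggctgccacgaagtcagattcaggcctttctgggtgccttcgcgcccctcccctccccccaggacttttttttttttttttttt

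HOX cluster peaks were of moderate strength within their lists. By −log10 q, the 17 LAP-Smad2 peaks had a median rank at 37.9% of the list counted from the weakest, and none ranked above 77.1%. The 21 LAP-Smad3 peaks had a median rank at 62.2% and reached 92.5%. Fold enrichments ran from 2.78 to 4.69 (median 3.86, list median 3.98) for LAP-Smad2 and from 3.24 to 7.36 (median 5.39, list median 4.97) for LAP-Smad3. Of these peaks, 16 of 17 and 21 of 21 had a fold enrichment and p-value identical with those of at least 1 other peak of their list, as did 89.7% and 97.2% of the whole lists. HOXB peaks 8 and 14 and HOXD peak 6, for example, all had a fold enrichment of 6.07 and a −log10 q of 5.63, values shared by 2478 LAP-Smad3 peaks. The score does not separate such peaks from one another.

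**Figure D5:**
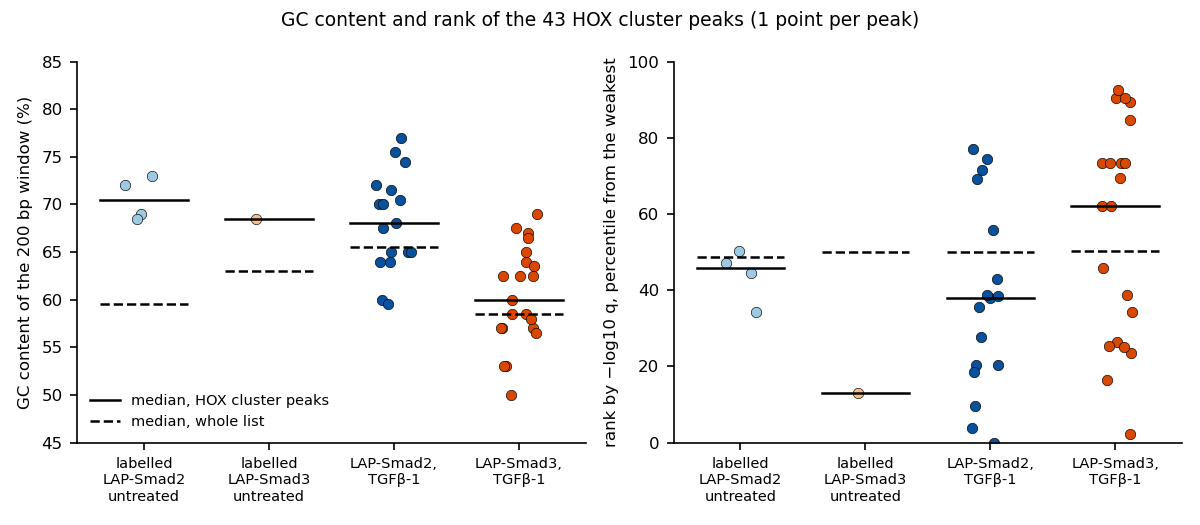
GC content of the 200 bp window in percent (left) and rank by −log10 q within the list, as a percentile from the weakest peak (right), for the 43 HOX cluster peaks, 1 point per peak and 1 column per list. Solid lines are medians of the cluster peaks and dashed lines medians of the whole list. LAP-Smad2 peaks after TGFβ-1 have a median GC content of 68.0% and LAP-Smad3 peaks of 60.0%.

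The DNA under LAP-Smad2 peaks was richer in GC than that under LAP-Smad3 peaks, in the HOX clusters as in the whole lists. The median GC content was 68.0% (59.5% to 77.0%) in the 17 LAP-Smad2 windows and 60.0% (at most 69.0%) in the 21 LAP-Smad3 windows, against 65.5% and 58.5% in the lists. The ranges overlapped. The 4 windows of the library labelled LAP-Smad2 untreated had 68.5% to 73.0%, all above their list median of 59.5%.

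AGAC was found, on either strand of the 200 bp, in 11 of 17 LAP-Smad2 windows (64.7%, 41.3% to 82.7%) and in 18 of 21 LAP-Smad3 windows (85.7%, with a lower bound of 65.4%). The shares over the whole lists were 71.1% and 85.4%, and 67.0% of windows on all protein-coding starts had a match. The HOX windows were thus close to their own list in both cases. Of the GC-rich Smad sequences, GGCGC was in 12 LAP-Smad2 windows (70.6%, 46.9% to 86.7%) and 10 LAP-Smad3 windows (47.6%, 28.3% to 67.6%), against 56.8% and 43.2% in the lists and 59.7% at starts. GGCCG was in 11 (64.7%) and 8 (38.1%), against 57.7% and 35.3% in the lists and 58.7% at starts. All list values lay inside the intervals of the HOX shares. CAGAC, which contains AGAC, was in 6 LAP-Smad2 windows (35.3%) and 10 LAP-Smad3 windows (47.6%, 28.3% to 67.6%), against 35.0% and 34.5% in the lists and 32.1% at starts.

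The E-box CANNTG, the core of basic helix-loop-helix binding sites, was in 10 of 17 LAP-Smad2 windows (58.8%, 36.0% to 78.4%) and 7 of 21 LAP-Smad3 windows (33.3%, 17.2% to 54.6%). The list shares were 51.5% and 55.6%, so that the LAP-Smad3 list lay just above the interval of its HOX windows. Among the 18 motif shares of the lists after TGFβ-1, a value so close to its bound is not taken as a difference. Of windows at starts, 48.8% had a match. AGGTCA, the core sequence of nuclear receptor sites, was in 1 LAP-Smad2 window (5.88%) and 4 LAP-Smad3 windows (19.0%), against 14.0% and 27.3% in the lists and 6.83% at starts. The 4 LAP-Smad3 windows include those of HOXB peak 22 and HOXD peak 9, taken up below with repeat sequence. TGANTCA, the AP-1 sequence, was in 1 HOX window only, that of HOXD peak 2 of LAP-Smad3 upstream of HOXD12, against 1.31% and 2.63% of the lists and 3.05% at starts. The homeodomain sequence TAATTA was in 0 of the 17 and 0 of the 21 windows, against 0.369% and 0.748% of the lists and 1.17% at starts, and GTCTAGAC, a palindrome of 2 AGAC sequences, was also in none, against 0.0410% and 0.0528% of the lists and 0.0849% at starts. These matches are letters in a window and were not tested as binding sites.

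HOX clusters are known as regions with few interspersed repeats, and some LAP-Smad3 windows held repeat sequence all the same. GCCTCAGCCTCC, on either strand the run of 12 bases found in more windows of the LAP-Smad3 list after TGFβ-1 than any other, belongs to Alu, the most common short repeat of the human genome. It was looked for after the HOX windows had been seen. It was in 3 of 21 LAP-Smad3 windows of the HOX clusters (14.3%, 4.98% to 34.6%), those of HOXB peaks 7 and 25 and HOXD peak 9, and in 0 of 17 LAP-Smad2 windows (up to 17.6%, 3 counts). In the whole lists it was in 27.3% of LAP-Smad3 and 13.2% of LAP-Smad2 windows. The LAP-Smad3 list value lies inside the interval of the HOX share, and the LAP-Smad2 value is below what its count of 0 allows. HOXD peak 9 is the promoter peak of HOXD1, and the other peaks lay at no HOX promoter. All 3 windows also hold an AGAC match, and that of HOXD peak 9 an AGGTCA match, which the motif shares above include. The window of HOXB peak 22 lacks this run, but shares with HOXD peak 9 the bases around its AGGTCA match. How reads that map to several copies were treated was not given in the sources used here, and its part in these peaks was not tested.

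Related homeobox genes were counted by the same rule. Of 9 genes for HOX cofactors, the PBX, MEIS and PKNOX proteins that bind DNA with HOX proteins, 4 had a promoter peak in at least 1 list after TGFβ-1 (44.4%), namely MEIS1, PBX2, PBX3 and PKNOX2. PBX2 had 1 LAP-Smad2 peak and 2 LAP-Smad3 peaks. Of 6 ParaHox genes, a small family related to the HOX genes, 3 had one, GSX2 and the intestinal factors CDX1 and CDX2. Of the 14 DLX, IRX and EVX genes, which lie in clusters of their own or beside HOX clusters, 8 had one (57.1%), among them EVX2 beside HOXD13, at which HOXD peak 1 of LAP-Smad2 lay with its summit 2305 bp from the start. These shares stand beside 28.2% of HOX promoters and 45.1% of all promoters, with 6 to 14 genes in each list.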

How the data were processed

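MDA-MB-231 cells with LAP-tagged Smad2 or Smad3 were measured by anti-GFP ChIP-seq. Alignment by the authors used Bowtie2 and hg38, and their peaks, called with MACS2 on reads extended to 200 bp and a q-value of at most 0.05, were deposited as 1 list per library. The deposited fold enrichment is a ratio of the pileup at the summit to the local background, and the p-value and q-value were deposited by the authors as −log10 values. The control library, the MACS2 version and the filters were not given in the sources used here, and depth per library is unknown. The HOX genes, the related gene lists and the sequences searched were chosen with earlier results of these data known. All 39 HOX genes were counted, and those with a promoter peak were described in full, along with the strongest peaks, peaks that overlap between lists and peaks at non-coding genes. Starts of canonical transcripts, exons and coding parts came from GENCODE release 44, microRNAs from RefSeq. Around the centre of every peak interval 200 bp of hg38 were read, and 6 windows with annotated untranslated sequence were not printed. Some items are counted but not reported here singly. Motifs were searched on both strands. Counts were made with pandas 2.3.3, numpy 2.4.6, scipy 1.17.1, pysam 0.24.0 and matplotlib 3.10.9 under Python 3.11.15, and the functions were tested on simulated data, where 14 of 14 checks passed. The alternatives were other promoter distances and starts, other spans, a stricter q-value, equally long lists, other definitions of overlap and windows on the summit. No test was made, as there is 1 library per condition.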

Additional observations from a re-analysis of the deposited data

How the results depend on the processing

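With promoters of 1 kb in place of 3 kb, the HOX promoters with a peak after TGFβ-1 were 3 in place of 6 for LAP-Smad2 and 2 in place of 6 for LAP-Smad3, with 0 in place of 3 in paralogue groups 1 to 3 and 2 in place of 5 in groups 4 to 8. With the LAP-Smad3 list reduced to the length of the LAP-Smad2 list, its HOX cluster peaks were 12 in place of 21 and its HOX promoters 3 in place of 6, with 3 in place of 5 in groups 4 to 8 and 5 in place of 8 for the DLX, IRX and EVX genes. With every protein-coding transcript start, groups 1 to 3 had 5 in place of 3. The HOX promoters with a peak in both lists after TGFβ-1, recounted under these alternatives after the data were seen, were 3 in place of 1 with every protein-coding transcript start, 0 with promoters of 1 kb and 1 under the other 5 alternatives. For the library labelled LAP-Smad2 untreated, spans widened by 50 kb held 7 peaks in place of 4, and the 5′ end of the gene record gave 1 HOX promoter in place of 3, since HOXB7 and HOXC9 were lost. A q-value of 0.01 moved none of 16 counts by over 1.5 times, and the 18 motif shares of the lists after TGFβ-1 stayed within their intervals in windows on the summit. The overlap of the lists after TGFβ-1 was 0 under each definition. No paired analysis was possible because each condition has 1 library, and for the same reason no replicate could be left out. Depth limits each count, since the length of a list depends on it.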
